A study of Mus musculus with 10 samples.

Results

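Transcripts of 9 named genes of the insulin pathway were followed through inguinal white fat of mice with and without PexRAP: Ide, Insr, Igf1r, Irs1, Irs2, Pik3r1, Akt2, Grb10 and Foxo1. They are 9 of the 40501 gene identifiers of the deposited count table, matched by symbol, and each symbol stood for 1 identifier. All 9 passed the low-count filter, so every one was tested. The set was drawn up with this comparison already known: Ide was chosen by its call between the groups in the edgeR test, and the other genes for their place in the pathway. Fold changes of the 9 genes between the groups are therefore a description and not a test. The tissue, inguinal white adipose tissue, is the subcutaneous fat depot of the groin, here from male mice fed chow. Of its 10 libraries, 5 came from Cre-negative mice (Control, replicates 2, 3, 5, 7 and 8). The other 5 came from Cre-positive mice lacking PexRAP in adipose tissue (PexRAP-AKO, replicates 1, 2, 3, 5 and 6). The series title places the mice on a C57/BL6J background, the labels give both an age of 8 weeks and 8 weeks of chow, and the Cre driver is not given in the sources used here. PexRAP, the product of Dhrs7b, is a reductase of peroxisomal ether lipid synthesis.

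Insulin binds its receptor on the adipocyte surface, a tyrosine kinase that phosphorylates the docking proteins IRS1 and IRS2. These recruit phosphoinositide 3-kinase, whose lipid product activates AKT2, and AKT2 promotes glucose uptake and keeps the transcription factor FOXO1 out of the nucleus. GRB10 is an adaptor that restrains the receptors, and insulin-degrading enzyme (IDE) is a zinc metalloprotease that cleaves insulin and other small peptides. In white fat the pathway drives storage of glucose and fatty acids and holds back lipolysis.

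Promoter windows of 250 bases before to 50 bases after a transcription start (RefSeq, GRCm38.p6) were found for 8 of the 9 genes, 13 windows in all. Both strands were searched for the insulin response element TGTTTTG, the forkhead site TGTTTAC, the sterol regulatory element TCACNCCAC and the E-box CACGTG, which occurred in 6.28%, 3.65%, 1.24% and 7.15% of the 32851 windows of the RefSeq table. The 3 windows with a match are shown, 5′ to 3′ on the strand of the gene, with every matched motif in capitals: Irs2 at chr8:11008880-11009179, Irs1 at chr1:82291390-82291689 and Ide at chr19:37334495-37334794, all on the minus strand.
Irs2: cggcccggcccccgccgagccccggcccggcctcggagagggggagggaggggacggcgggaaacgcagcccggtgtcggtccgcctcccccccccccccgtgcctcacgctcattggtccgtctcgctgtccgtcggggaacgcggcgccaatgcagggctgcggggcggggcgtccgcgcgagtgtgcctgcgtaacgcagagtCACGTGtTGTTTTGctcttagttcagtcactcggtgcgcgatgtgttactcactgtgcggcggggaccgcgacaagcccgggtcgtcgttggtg
Irs1: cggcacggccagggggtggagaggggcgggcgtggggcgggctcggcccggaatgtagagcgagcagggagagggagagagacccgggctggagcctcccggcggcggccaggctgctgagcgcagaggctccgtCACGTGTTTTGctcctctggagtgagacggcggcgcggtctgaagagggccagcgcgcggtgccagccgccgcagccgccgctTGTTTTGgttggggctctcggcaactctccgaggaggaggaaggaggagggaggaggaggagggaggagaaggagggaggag
Ide: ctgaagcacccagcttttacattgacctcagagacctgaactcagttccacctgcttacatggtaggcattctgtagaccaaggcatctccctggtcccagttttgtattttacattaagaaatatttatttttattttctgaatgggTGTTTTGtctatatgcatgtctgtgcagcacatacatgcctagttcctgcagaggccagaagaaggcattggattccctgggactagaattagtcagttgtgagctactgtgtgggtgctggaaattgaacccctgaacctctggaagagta
In Irs2 the E-box began at position -44 and TGTTTTG at -37, counted from the start. In Irs1 the E-box began at -115 and a TGTTTTG that shares its last 2 bases began at -111, and a further TGTTTTG began at -32. An E-box with TGTTTTG starting at most 7 bases after its first base was in 9 of the 32851 windows (0.0274%), a distance chosen after both windows had been read. The Ide window had 1 TGTTTTG, at -102, and no E-box. It held 0 CpG dinucleotides and 44.0% G and C, against 28 CpG and 71.3% in Irs1 and 41 CpG and 72.0% in Irs2. The Ide window lies inside the Ide gene of GENCODE M21 and not at the 5′ end of that gene. The Irs2 window lies wholly outside the GENCODE Irs2 gene, before its 5′ end at 11008458. The Irs1 window spans the 5′ end of its gene, at 82291416. All positions are counted from the RefSeq starts. The forkhead and sterol letters were in none of the 13 windows. These matches describe letters and show no binding.

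The libraries held 11274865 to 19881168 counts, and levels below are CPM, the counts of a gene divided by the TMM-scaled library total. Dhrs7b, the deleted gene, stood at 61.2 to 95.8 CPM in Control against 17.9 to 22.8 CPM in PexRAP-AKO. Adipocyte markers summed to 38130 to 49400 CPM in Control against 38040 to 46850 CPM in PexRAP-AKO, and all 10 were detected. Transcripts of other cell types were present in every library, and none of the markers listed was at 0 counts in all 10. Summed over 14 brown adipocyte markers the level ran from 373 to 2402 CPM in Control against 709.5 to 3065 CPM in PexRAP-AKO, with 11 of 13 tested markers higher and a median log2 fold change of 0.78. Skeletal muscle markers summed to 26.9 to 1440 CPM in Control against 19.7 to 147 CPM in PexRAP-AKO, with 13 of 13 negative and a median of -2.40. Lymphocyte markers reached at most 37.9 CPM in sum in Control against 145 CPM in replicate 6 of PexRAP-AKO, with 9 of 9 positive and a median of 1.34. Endothelial markers summed to 1007 to 1221 CPM in Control against 721 to 1010.0 CPM in PexRAP-AKO, with 10 of 10 negative and a median of -0.26. Positive fold changes were found for 8 of 10 macrophage markers, 4 of 10 adipose progenitor markers, 4 of 10 adipocyte markers and both tested markers of mammary and skin epithelium. In a bulk sample, fewer cells of a type and less RNA per cell cannot be told apart.

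Ide was the one gene of the 9 that stood clearly apart between the groups. It lies on chromosome 19 from 37268743 to 37337852 (ENSMUSG00000056999, GRCm38, minus strand). In Control replicates 2, 3, 5, 7 and 8 it was at 76.1, 76.7, 75.1, 72.0 and 67.6 CPM. In PexRAP-AKO replicates 1, 2, 3, 5 and 6 it was at 120.2, 141, 158, 96.8 and 130.1 CPM. Every PexRAP-AKO library was above every Control library, with replicate 5 nearest to Control and replicate 3 farthest from it. The means were 73.5 ± 3.78 CPM in Control against 129.3 ± 23.0 CPM in PexRAP-AKO (SD, n = 5 each), a ratio of 1.76 and a log2 fold change of 0.82 (SE 0.11). The level was tight in Control, with a coefficient of variation of 5.15%, and looser in PexRAP-AKO, at 17.8%. In edgeR's fit, Ide ranked 6 of the 14913 genes by p, and 1.97% of them had a larger absolute fold change.

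The size of the Ide difference moved little with the processing, but its call did. Over 20 alternatives the log2 fold change ran from 0.73 to 0.90, and Ide was among the genes called in 11 of them. It was not among them when PexRAP-AKO replicate 2 or any 1 of Control replicates 2, 5, 7 and 8 was left out. After adjustment for the brown adipocyte score the log2 fold change was 0.77 (SE 0.13) and after adjustment for the skeletal muscle score 0.79 (SE 0.12), and neither fit called it. The nearest tested protein-coding genes on either side were March5, a ubiquitin ligase of the mitochondrial outer membrane, and Kif11, a mitotic kinesin. March5 was at 134 ± 7.88 CPM in Control against 149 ± 3.19 CPM in PexRAP-AKO (SD, n = 5 each, log2 fold change 0.15, edgeR adjusted p = 0.225). Its PexRAP-AKO libraries were all above its Control libraries, and groups did not overlap in either direction for 3.41% of all genes tested. Kif11 was at 4.07 ± 1.498 and 3.27 ± 0.82 CPM (SD, n = 5 each, log2 fold change -0.31, edgeR adjusted p = 0.61). The pseudogene Rpl10-ps6, which overlaps Ide on the same strand, had 12 counts in the 10 libraries together.

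**Figure D1:**
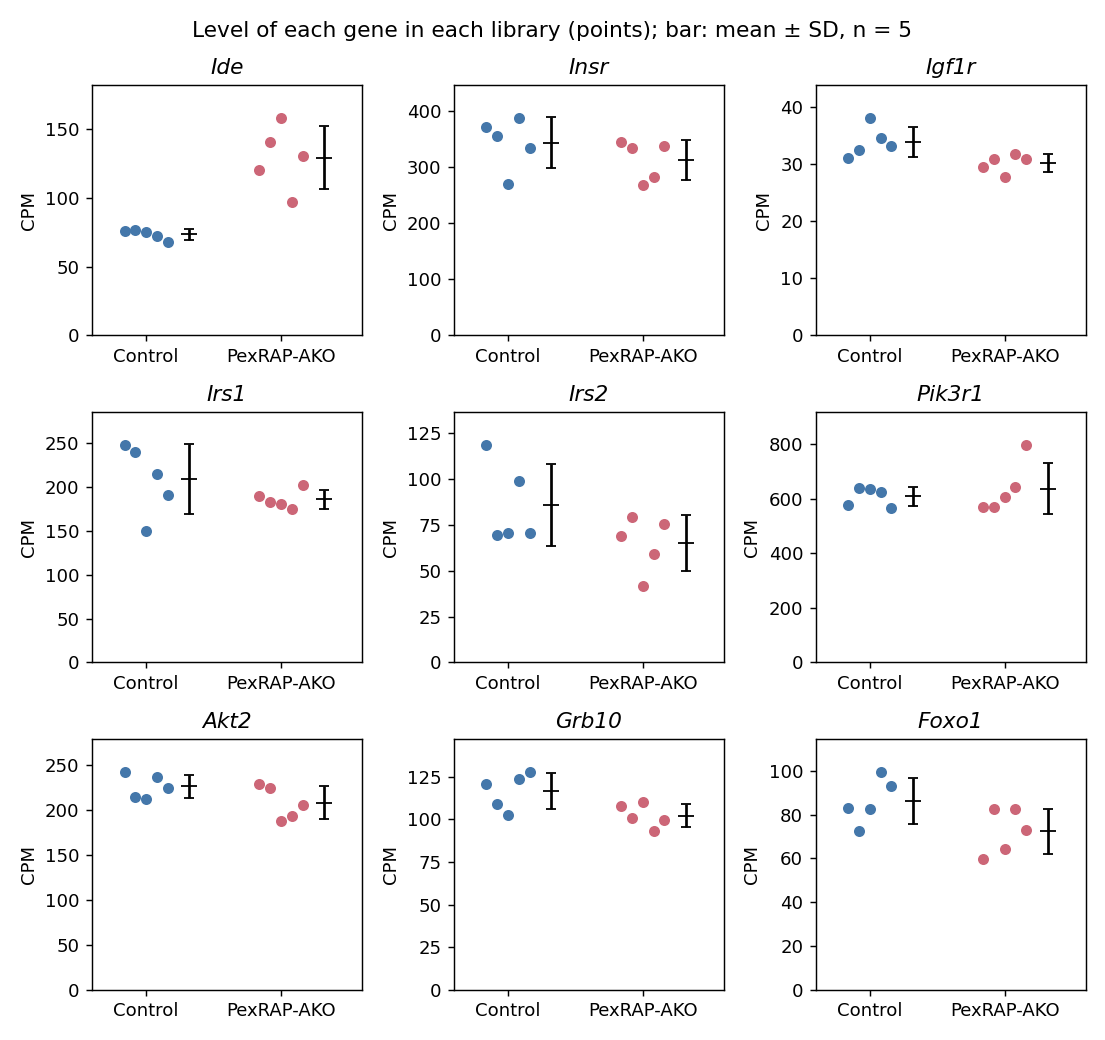
Level of each of the 9 genes in CPM (vertical axes from 0) in each library, with the 5 Control libraries in blue and the 5 PexRAP-AKO libraries in red. Black bars give the mean ± SD of 5 libraries. The Ide libraries part into 67.6 to 76.7 and 96.8 to 158 CPM, and the groups overlap for the other 8 genes.

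Both receptors had a negative fold change, with overlapping groups. Insr, the insulin receptor (chromosome 8, 3122061 to 3279617), was at 371, 355, 269.9, 388 and 333 CPM in Control replicates 2, 3, 5, 7 and 8. In PexRAP-AKO replicates 1, 2, 3, 5 and 6 it was at 345, 334, 267, 282 and 337 CPM. Control replicate 5 lay among the low PexRAP-AKO libraries, and the log2 fold change was -0.13 (SE 0.11). It was -0.21 without Control replicate 5, -0.09 without Control replicate 7, -0.08 without PexRAP-AKO replicate 3 and -0.0051 after adjustment for the brown adipocyte score. Igf1r, the receptor for insulin-like growth factor 1 (chromosome 7, 67952827 to 68233668), was at 31.0, 32.5, 38.1, 34.5 and 33.1 CPM in Control and at 29.4, 30.95, 27.8, 31.8 and 30.9 CPM in PexRAP-AKO, in the same order of replicates. In 4 of the 5 PexRAP-AKO libraries Igf1r was below every Control library, and replicate 5 was the exception. Its log2 fold change was -0.17 (SE 0.07).

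For both docking proteins the SD among Control libraries was larger than the difference between the group means. Irs1 (chromosome 1, 82233101 to 82291416) was at 248.5, 240.2, 149.8, 215 and 191 CPM in Control and at 189.8, 183.5, 181, 175 and 202 CPM in PexRAP-AKO. Control replicate 5 was the lowest of the 10 libraries, and the coefficient of variation was 19.1% in Control and 5.62% in PexRAP-AKO. The log2 fold change was -0.17 (SE 0.12), and it was -0.27 without Control replicate 5 and -0.10 without Control replicate 2. Irs2 (chromosome 8, 10984681 to 11008458) had a log2 fold change of -0.39 (SE 0.20) and wide groups. This was the most negative value of the 9 with all libraries, but without Control replicate 2 it was -0.25, and Foxo1 at -0.27 was then more negative. It was at 119, 69.3, 70.5, 99.1 and 70.8 CPM in Control and at 69.05, 79.5, 41.6, 59.3 and 75.7 CPM in PexRAP-AKO. Control replicates 2 and 7 were high and PexRAP-AKO replicate 3 was low, while the other 7 libraries lay between 59.3 and 79.5 CPM. Its coefficients of variation, 26.1% in Control and 23.3% in PexRAP-AKO, were the largest of the 9 genes in either group.

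Downstream, Pik3r1, the regulatory subunit of phosphoinositide 3-kinase (chromosome 13, 101680563 to 101768217), showed no steady direction. It was at 577, 639.7, 636, 623 and 566 CPM in Control and at 569.8, 567.5, 605, 644 and 797 CPM in PexRAP-AKO. PexRAP-AKO replicate 6 was the highest library, and the log2 fold change of 0.07 (SE 0.10) became -0.03 without it. Akt2, the main AKT kinase of insulin-responsive fat (chromosome 7, 27591552 to 27640826), was at 242, 215, 212, 237 and 224 CPM in Control and at 229, 225, 188, 193 and 206 CPM in PexRAP-AKO. Its log2 fold change was -0.12 (SE 0.07), or -0.05 once adjusted for the brown adipocyte score, and 3 PexRAP-AKO libraries were below every Control library. Foxo1 (chromosome 3, 52268336 to 52353221) was at 83.0, 72.65, 82.6, 99.5 and 93.1 CPM in Control and at 59.7, 82.3, 64.4, 82.3 and 72.8 CPM in PexRAP-AKO. Each PexRAP-AKO library was below the Control median, 2 of them below every Control library, and the log2 fold change was -0.25 (SE 0.11). In the 6 libraries of the replicate block it was -0.07.

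Grb10, the restraining adaptor (chromosome 11, 11930508 to 12038683), is an imprinted gene, and the counts do not separate its parental copies. It was at 121, 109, 103, 124 and 128 CPM in Control and at 108, 101, 110.0, 93.2 and 99.8 CPM in PexRAP-AKO. All 5 PexRAP-AKO libraries were below the Control median and 3 were below every Control library, with a log2 fold change of -0.19 (SE 0.07). It was -0.10 when the brown adipocyte score was adjusted for.

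Read together, 2 of the 9 genes had a positive fold change and 7 a negative one. The median log2 fold change was -0.17, against 0.00 over all 14913 genes tested, 50.2% of which were negative. The 7 negative genes were negative in all 20 alternatives, and Pik3r1 was positive in 16 of 20. By edgeR at an adjusted p under 0.05, 1 of the 9 was called, Ide, beside 0.101% of all genes tested. The same count was given by DESeq2, beside 2.94% of the 14913 genes. DESeq2 gave no adjusted p for 4626 of these genes, which count as not called in that share. The groups did not overlap for 1 of the 9, again Ide, beside 3.41% of all genes tested. Ide was in the set because of this comparison, so these counts are not evidence about the set.

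Levels between genes were compared as CPM per kilobase of exon, using the union of annotated exons. Pik3r1 was highest at 61.8 ± 6.83 CPM per kb (SD, n = 10), followed by Akt2 at 30.4 ± 2.50, Insr at 23.9 ± 3.05 and Irs1 at 21.6 ± 3.29. Ide at 13.5 ± 4.43, Grb10 at 12.1 ± 1.25, Irs2 at 11.9 ± 3.33 and Foxo1 at 9.14 ± 1.41 came next, and Igf1r was lowest at 1.91 ± 0.17. Pik3r1 was above Akt2, and Foxo1 above Igf1r, in 10 of 10 libraries with ranges that did not touch. Akt2 was above Insr in 10 of 10 libraries, but their ranges overlapped. Insr and Irs1 changed places between libraries, Insr being higher in 7 of 10, and so did Grb10 and Irs2, with Grb10 higher in 6. Insr was the higher of the receptors in every library: the ratio of Insr to Igf1r per kilobase was 8.65 to 14.6 in Control and 10.8 to 14.3 in PexRAP-AKO.

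The order of the genes differed between the genotypes for 3 of the 9. Irs2 took place 5 in Control and 7 in PexRAP-AKO, and Foxo1 places 7 and 8. Ide took place 8 in Control, at 9.79 ± 0.50 CPM per kb, and place 5 in PexRAP-AKO, at 17.2 ± 3.07 CPM per kb (SD, n = 5 each). It was below Grb10 in 5 of 5 Control libraries and above it in 5 of 5 PexRAP-AKO libraries. That crossing restates the difference between the groups by which Ide was chosen, and Foxo1 changed place only because Ide passed it. With the longest annotated transcript as the length, Ide took place 6 in Control and 4 in PexRAP-AKO, Grb10 went from place 4 to 6, and Grb10, Irs1 and Ide then lay close together at 21.7, 21.6 and 20.4 CPM per kb over the 10 libraries. The ratio of Ide to Insr was 0.34 to 0.51 in Control and 0.63 to 1.09 in PexRAP-AKO, by exon union.

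**Figure D2:**
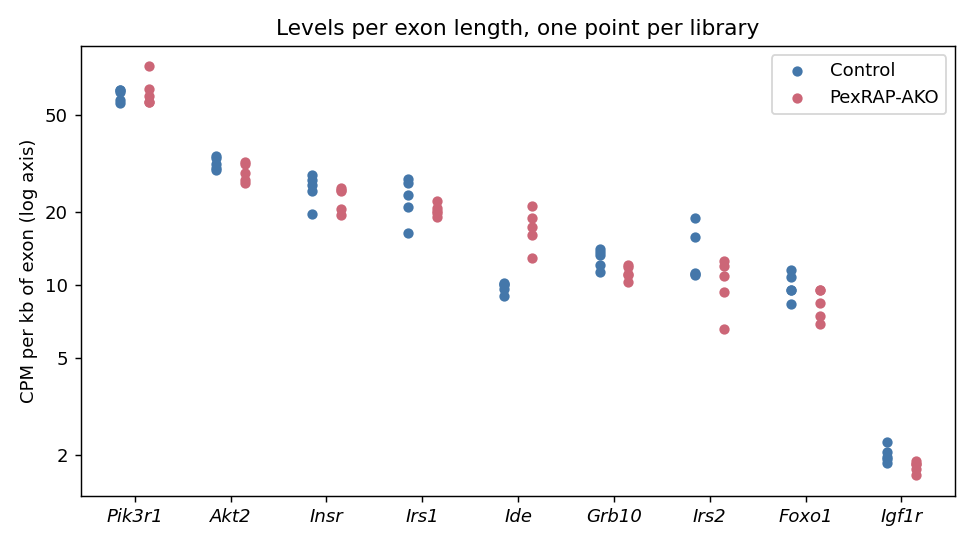
CPM per kilobase of exon (log axis) for the 9 genes, ordered by their mean over 10 libraries, with 1 point per library and Control in blue and PexRAP-AKO in red. Pik3r1 is highest at 61.8 and Igf1r lowest at 1.91. Ide lies below Grb10 in each Control library and above it in each PexRAP-AKO library, which restates the difference by which Ide was chosen.

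To see how the genes varied among libraries of the same genotype, each gene's log2 CPM was taken less its group mean. This removes the difference between the groups. The edgeR call that brought Ide into the set also weighed the spread within groups, so the deviations of Ide are not independent of that choice. Over the 10 libraries 54 correlations were computed: 36 between pairs of the genes and 18 with the brown adipocyte and skeletal muscle scores. The exact permutation test reordered libraries within groups, two-sided. No relation passed after Benjamini-Hochberg adjustment over the 54, the lowest adjusted p being 0.193 for Pearson's r and 0.424 for Spearman's rho. Pairs ranged from -0.72 to 0.82, with 21 of 36 positive.

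The 4 highest coefficients lay among Insr, Irs1, Irs2 and Akt2. Irs2 and Akt2 had r = 0.82 and rho = 0.72 (n = 10, exact permutation p = 0.00569 and 0.0215, adjusted p = 0.193 and 0.424), and r was 0.73 without the 2 libraries farthest from the median of Irs2. Insr and Akt2 had r = 0.80 and rho = 0.79 (n = 10, exact permutation p = 0.00986 and 0.00833, adjusted p = 0.193 and 0.424), and r was 0.75 without the 2 libraries farthest in Insr. Insr and Irs1 had r = 0.78 and rho = 0.71 (n = 10, exact permutation p = 0.0126 and 0.0465, adjusted p = 0.193 and 0.424), and r fell to 0.54 without those 2 libraries. Insr and Irs2 had r = 0.75 and rho = 0.70 (n = 10, exact permutation p = 0.0143 and 0.044, adjusted p = 0.193 and 0.424), and r was 0.64 without them. Insr, Irs1, Irs2 and Akt2 were all below their group mean in Control replicates 5 and 8 and PexRAP-AKO replicates 3 and 5, and Control replicates 2 and 7 were above their group mean in all 4. Igf1r and Irs1 had r = -0.72 and rho = -0.59 (n = 10, exact permutation p = 0.0467 and 0.105, adjusted p = 0.28 and 0.656), but r was -0.13 without the 2 libraries farthest in Igf1r, so that relation rests on those libraries. Igf1r and Grb10 had r = -0.70 and rho = -0.58 (n = 10, exact permutation p = 0.0456 and 0.109, adjusted p = 0.28 and 0.656), and r was -0.51 without the same 2 libraries.

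Within groups the brown adipocyte score had its most negative coefficients with Grb10, Insr and Akt2, and none of these passed after adjustment. It had r = -0.76 and rho = -0.68 with Grb10 (n = 10, exact permutation p = 0.0302 and 0.0549, adjusted p = 0.28 and 0.424; r = -0.55 without the 2 libraries farthest in Grb10). With Akt2 it had r = -0.66 and rho = -0.71 (n = 10, exact permutation p = 0.0383 and 0.0268, adjusted p = 0.28 and 0.424; r = -0.52 without 2 libraries). With Insr it had r = -0.69 and rho = -0.68 (n = 10, exact permutation p = 0.0447 and 0.054, adjusted p = 0.28 and 0.424; r = -0.37 without 2 libraries). With Ide it had r = 0.20 and rho = 0.36 (n = 10, exact permutation p = 0.559 and 0.315, adjusted p = 0.937 and 0.91; r = 0.69 without the 2 libraries farthest in Ide). With Irs2, Irs1, Foxo1, Igf1r and Pik3r1 it had r = -0.35, -0.33, -0.14, 0.31 and 0.30 (n = 10, exact permutation, each adjusted p above 0.9). With this score as a covariate the log2 fold changes of Irs1, Irs2, Igf1r, Foxo1 and Pik3r1 were -0.10, -0.27, -0.20, -0.22 and 0.02, and those of Ide, Insr, Akt2 and Grb10 are given above. The score is itself measured in these libraries, and whether brown adipocytes account for any of these values was not tested. For the skeletal muscle score r ran from -0.33 with Insr to 0.27 with Grb10 (n = 10, exact permutation, each adjusted p above 0.9).

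**Figure D3:**
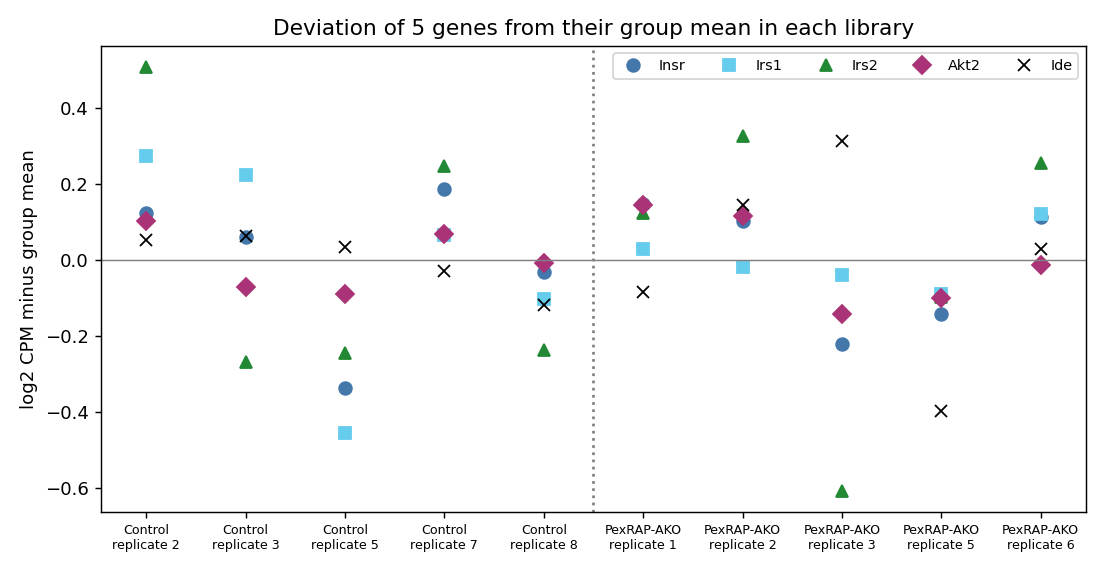
Deviation of log2 CPM from the group mean (vertical axis) in each of the 10 libraries for Insr, Irs1, Irs2, Akt2 and Ide, with a dotted line between Control and PexRAP-AKO. Insr, Irs1, Irs2 and Akt2 lie below 0 together in Control replicates 5 and 8 and PexRAP-AKO replicates 3 and 5, and Ide is highest in PexRAP-AKO replicate 3.

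Among 14289 other genes with a mean of at least 1 CPM, the 5 whose deviations were most like those of Ide over the 10 libraries were Plscr3 (r = 0.90), Hrasls5 (0.88), Igf2bp2 (0.88), Atp6v1g2 (0.86) and Prdm4 (0.85). As the highest of so many, these coefficients carry no p. None of the 5 was called between the groups by edgeR, with log2 fold changes of -0.39 to 0.20.

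Around the 9 genes, 91 other genes of the pathway were listed by role, all were found in the table, and 84 passed the low-count filter. By edgeR, 0 of the 84 were called at an adjusted p under 0.05, 0 higher and 0 lower, beside 0.101% of all genes tested. At an unadjusted p under 0.05 there were 10 higher and 9 lower of the 84, beside 9.01% and 6.44% of all genes tested. DESeq2 called 2 of the 84, Igfbp7 lower and Srebf1 higher, beside 2.94% of all genes tested. With limma voom 0 of the 84 were called, beside 19 of all 14913 genes. The median log2 fold change of the 84 was -0.04, and the groups did not overlap for 4, beside the 3.41% of all genes: Grb7 and Pdk4 were higher in PexRAP-AKO, and Igfbp7 and Gab1 were lower.

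Among ligands and binding proteins, transcripts of insulin itself were at most 1 count over the 10 libraries (Ins1 at 0 and Ins2 at 1). Of 8 genes tested, 2 were higher and 6 lower. Igfbp7, a secreted IGF-binding protein abundant in vessels, was at 292 ± 12.5 CPM in Control against 246 ± 11.9 CPM in PexRAP-AKO (SD, n = 5 each, edgeR adjusted p = 0.125). It stood beside the endothelial markers given above, whose part was not tested. Igf1, the main ligand of IGF1R, was at 290.2 ± 23.0 and 265 ± 12.3 CPM (edgeR adjusted p = 0.398). Igfbp4, which also binds IGF1, was at 673 ± 66.4 and 558 ± 68.5 CPM (edgeR adjusted p = 0.239).

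Among other receptors and receptor phosphatases, 3 of 5 were higher. Ptpn2, a tyrosine phosphatase that acts on the insulin receptor, was at 13.3 ± 1.11 CPM in Control against 17.5 ± 3.29 CPM in PexRAP-AKO (SD, n = 5 each, edgeR adjusted p = 0.185). Of 15 adaptors tested, 8 were higher and 7 lower. Grb7, a relative of Grb10, was low in both groups, at 1.46 ± 0.23 and 3.78 ± 1.99 CPM (edgeR adjusted p = 0.126). Gab1, a docking protein like the IRS proteins, was at 50.1 ± 3.19 and 42.2 ± 4.23 CPM (edgeR adjusted p = 0.18). Irs3, an IRS form found in rodent fat, was at 36.3 ± 6.10 and 37.2 ± 1.81 CPM (edgeR adjusted p = 0.904) and was named after its value was seen.

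Of 7 other phosphoinositide 3-kinase subunits and lipid phosphatases, 6 were lower, with a median of -0.08. Inppl1, the gene of the lipid phosphatase SHIP2, was at 128 ± 9.59 CPM in Control against 118 ± 2.74 CPM in PexRAP-AKO (SD, n = 5 each, edgeR adjusted p = 0.396). Of 19 other kinases and regulators from PDK1 to mTOR, 6 were higher and 13 lower, with a median of -0.05. Rps6kb1, the S6 kinase downstream of mTOR, was at 101 ± 6.79 and 90.6 ± 4.98 CPM (edgeR adjusted p = 0.256).

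Among 8 metabolic effectors, 5 were higher. Srebf1, the gene of the lipogenic factor SREBP1, was at 547.5 ± 42.0 CPM in Control against 675 ± 73.3 CPM in PexRAP-AKO (SD, n = 5 each, edgeR adjusted p = 0.185). Acly, which makes cytosolic acetyl-CoA, had wide groups of 479.9 ± 353 and 1201 ± 677 CPM (edgeR adjusted p = 0.301). Slc2a4, the insulin-responsive glucose transporter GLUT4, was at 301 ± 44.9 and 341 ± 36.5 CPM (edgeR adjusted p = 0.463). Of 13 other FOXO factors and FOXO target genes, 11 were lower, with a median of -0.12. Foxo3, a relative of Foxo1, was at 80.5 ± 5.39 and 70.2 ± 5.01 CPM (edgeR adjusted p = 0.201). Pdk4, a FOXO target that restrains pyruvate oxidation, went the other way, at 229 ± 74.6 and 357 ± 40.7 CPM (edgeR adjusted p = 0.213).

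Among other proteases of insulin and of the M16 family to which IDE belongs, 7 of 9 were higher, with a median of 0.16. At an unadjusted p under 0.05 there were 5 higher and 1 lower, beside the 9.01% and 6.44% of all genes. The higher ones were Uqcrc1 and Uqcrc2, core proteins of respiratory complex III, Pmpca and Pmpcb, the mitochondrial processing peptidase, and Ctsd, a lysosomal protease. The lower one was Ece1, endothelin-converting enzyme, at 179 ± 6.34 CPM in Control against 159.6 ± 13.6 CPM in PexRAP-AKO (SD, n = 5 each, log2 fold change -0.16, edgeR adjusted p = 0.267). Among the markers given above, 11 of 13 of brown adipocytes were likewise higher and 10 of 10 of endothelium lower, and their part in these values was not tested. Uqcrc2 was at 220.4 ± 40.9 CPM in Control against 295 ± 38.8 CPM in PexRAP-AKO (SD, n = 5 each, edgeR adjusted p = 0.19). Nrd1, the gene of nardilysin, a relative of IDE, was at 123 ± 9.55 and 118 ± 2.22 CPM (edgeR adjusted p = 0.705), and Pitrm1, the mitochondrial presequence protease, at 63.3 ± 2.03 and 63.8 ± 4.26 CPM (edgeR adjusted p = 0.937). Pmpca, Ece1, Nrd1 and Pitrm1 were named after their values were seen.

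**Figure D4:**
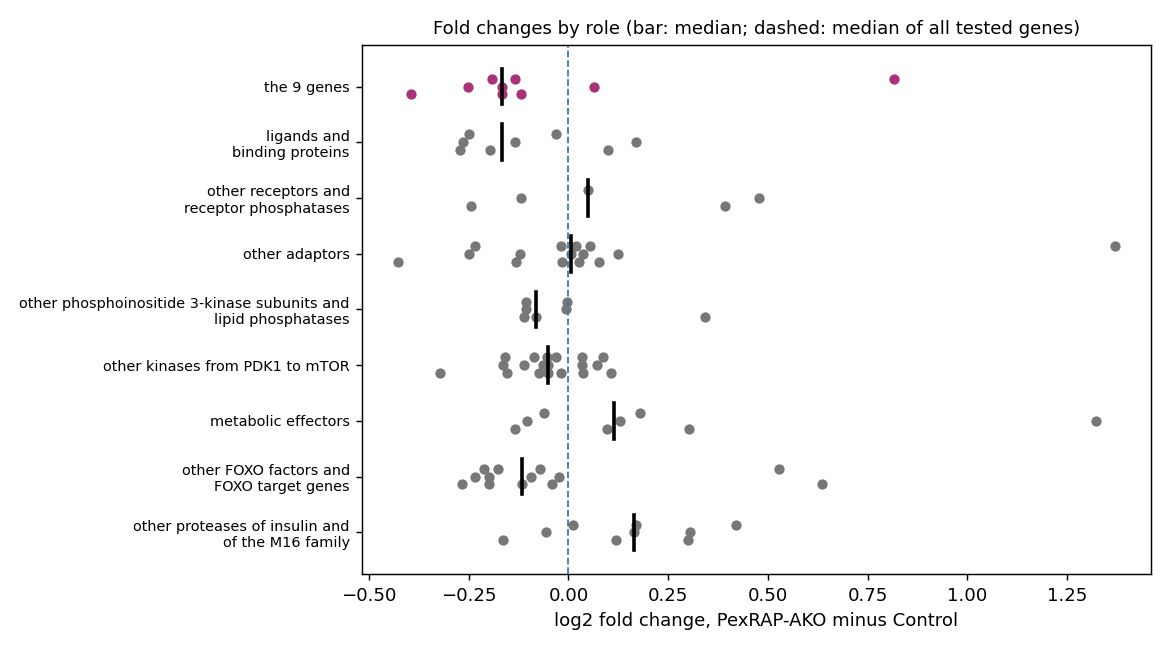
Log2 fold change, PexRAP-AKO minus Control (horizontal axis), of the 9 genes and of the 84 tested genes of 8 roles (rows). Points are genes, vertical bars are medians of a row and the dashed line is the median of all tested genes. Ide lies at 0.82 while the other 8 of the 9 genes lie between -0.39 and 0.07.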

How the data were processed

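The deposited values are raw read counts for each gene, 1 column for each of the 10 libraries. STAR 2.0.4b, Subread, featureCounts and edgeR are named in the submitters' processing notes. The build, the annotation and the strand setting are not stated there, so antisense overlaps cannot be told apart. Of 40724 rows, repeats of 117 identifiers held identical counts and 1 row each was kept. GENCODE M21 (GRCm38) gave coordinates and lengths and matched 99.4% of identifiers. A listed gene, Nrdc, stands in the table as Nrd1, and 1 gene of the original lists is not reported here.

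Genes were filtered with filterByExpr (minimum count 10, minimum total 15), scaled by TMM and tested with edgeR 4.0.16 (R 4.3.3), by the quasi-likelihood F test with robust dispersion on all 10 libraries and no covariate, adjusted by Benjamini-Hochberg over all 14913 genes at a threshold of 0.05. Each standard error is the fitted log2 change over the root of its F value. Scores are mean log2 CPM (prior count 2) of tested markers. P-values measure the spread between these samples, since the labels do not say more about their source. Counts were also simulated for the 14913 genes of PexRAP-AKO against Control. There the test found 67.2% of planted 1.5-fold changes, 76.1% of 2-fold changes and 89.4% of 4-fold changes. The simulation gave 163 calls against 15 in the data, so its cut-off on the unadjusted p was looser. These shares can therefore be too high for the data. Libraries of a group differed by at least 7.60 in chi-square per degree of freedom, so each was kept as 1 replicate.

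The genes and lists were chosen with earlier results of these data known. Beside the 9 genes and Dhrs7b, the text names up to 4 genes per role by p, the neighbours of Ide and the 5 genes most like it, and says where a further gene was named after its value was seen. Permutation p-values of the correlations, and the E-box search, were added later. Alternatives were other scalings, no filter, DESeq2 1.42.0, limma 3.58.1 voom, marker scores as covariates, a replicate block and libraries left out.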

Additional observations from a re-analysis of the deposited data

Results flagged for a closer look

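Among 98 groups of 5 values examined, of the 9 genes, the genes named by role and the marker lists, 7 held 1 library at a distance from its 4 fellows, where about 1 in 20, or 4.9, would do so by chance. None of the 7 was one of the 9 genes. Control replicate 5 was high for Igfbp7 (314 CPM, the others 280.5 to 289.6) and for Ptpn2 (15.3 CPM, the others 12.7 to 12.9). Control replicate 5 was also high for Pik3cd, a catalytic subunit of phosphoinositide 3-kinase found in leukocytes (37.4 CPM, the others 23.0 to 25.2). PexRAP-AKO replicate 1 was low for Srebf1 (550.1 CPM, the others 687 to 742). PexRAP-AKO replicate 6 was high in summed lymphocyte markers (145 CPM, the others 12.0 to 27.5) and in mammary and skin epithelium markers (56.4 CPM, the others 2.91 to 4.36). Control replicate 7 was high in mammary and skin epithelium markers (12.0 CPM, the others 2.49 to 4.08).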

How the results depend on the processing

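The count of 15 genes called by edgeR (14 higher, 1 lower) was 18 with RLE scaling, 17 with upper quartile scaling, 11 with total counts alone and 19 with limma voom. It was 439 (309 higher, 130 lower) by DESeq2, 26 (22 and 4) when low counts were kept, 7 after adjustment for the brown adipocyte score and 6 for the skeletal muscle score. It was 5 (3 higher, 2 lower) with PexRAP-AKO replicate 6 and Control replicate 8 left out together. With libraries left out in turn it ran from 3, lacking Control replicate 8, to 58, lacking PexRAP-AKO replicate 1. It was 43 lacking Control replicate 3, 5 lacking Control replicate 7, and 6 lacking Control replicate 2, Control replicate 5, PexRAP-AKO replicate 2 or PexRAP-AKO replicate 5. Of the 9 genes, 1 was called, Ide, and this became 0 with either score, with that pair of libraries left out, and without any 1 of PexRAP-AKO replicate 2 or Control replicates 2, 5, 7 and 8, so that it ran from 0 to 1 over libraries left out in turn. Of the 84 other pathway genes 0 were called by edgeR, beside 0.101% of all genes tested, and 2 by DESeq2, beside 2.94%. Fewer libraries were fitted where some were left out, but the cause of these shifts was not tested. With the replicate number as a block (6 libraries, numbers 2, 3 and 5), 3 genes were called, 2 higher and 1 lower, 0 of them among the 9. Deviations of samples that share a number correlated at -0.02, -0.08 and 0.36. These 3 values cannot settle whether equal numbers mark matched samples, and the main fit treated all samples as unmatched. With the block the log2 fold change of Ide was 0.76 (SE 0.14, edgeR adjusted p = 0.215). Pik3r1 changed sign to -0.0026 with total counts alone, -0.034 with the block and -0.054 without that pair of libraries. With libraries left out in turn it ranged from -0.029, lacking PexRAP-AKO replicate 6, to 0.104, lacking PexRAP-AKO replicate 2. With total counts alone the median of all genes tested was also lower, at -0.073 against -0.00065 in the main fit. The other 8 genes kept their sign in all 20 alternatives, but not their size. Insr ran from -0.21 to -0.0051, Igf1r from -0.24 to -0.12, Irs1 from -0.27 to -0.10 and Irs2 from -0.53 to -0.25. Akt2 ran from -0.19 to -0.05, Grb10 from -0.26 to -0.10, Foxo1 from -0.33 to -0.07 and Ide from 0.73 to 0.90. The most negative values of Igf1r, Akt2, Grb10 and Foxo1 came with total counts alone, where the median of all genes tested was -0.073. With the longest transcript as length, levels per kilobase of Ide, Insr, Igf1r, Pik3r1, Akt2 and Grb10 moved by more than 1 SD, to 20.4, 35.1, 2.81, 87.5, 47.8 and 21.7. Of the 54 correlations, 0 passed by Pearson's r or by Spearman's rho. In simulation, where more genes were called than in the data, 67.2% of 1.5-fold changes were found, so changes of that size and smaller can be missed.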
